A study of Rattus norvegicus with 12 samples.

Results

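The genes described here are the cardiac myosin heavy chain genes Myh6, Myh7 and Myh7b, the microRNA gene Mir208b, and 3 transcripts outside the annotation that the authors assembled themselves. The assembled transcripts bear consecutive serial numbers in the deposited table and are told apart here by the length over which they were counted, 4723, 16241 and 5435 nt in the order of those numbers. All were picked by symbol or identifier from the deposited table, and make up 7 of its 34700 rows. RNA was sequenced from the left ventricle of 12 male Sprague-Dawley rats, 3 in each of 4 groups. All rats had chest surgery at 8 weeks of age, and tissue was taken 12 weeks later. In the Sham rats a thread was passed around the left anterior descending coronary artery without being tied. In the other 3 groups the artery was ligated, so that heart failure (HF) developed after myocardial infarction. HF rats were sedentary. Treadmill running of HFE rats began 4 weeks after surgery and took 60 min per day, on 5 days per week, over 8 weeks. Over the same 8 weeks, BAIBA rats were given β-aminoisobutyric acid, a small molecule released by working muscle, at 75 mg/kg per day by gavage. The methods list exercise and BAIBA experiments separately, each with a Sham and an HF group. From which of them the sequenced Sham and HF rats came is not clear from the sources used here. Water by gavage is described for the untreated rats of the BAIBA study, and whether the sequenced Sham and HF rats received it is not clear either. Exercised Sham rats and Sham rats given BAIBA were not analysed here, so treatment was compared in infarcted hearts only. The methods place the sample in the anterior wall, and for the BAIBA group in the area around the infarct. Another passage of the study places HF tissue around the infarct as well. Treatment and sampling site cannot be told apart where the site differed, and the same holds for treatment and experiment.

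Myosin heavy chain is the motor protein of the thick filament. Myh6 encodes the α-heavy chain (α-MHC), which hydrolyses ATP fast and dominates in the adult rat ventricle. Myh7 encodes the β-heavy chain (β-MHC), which is slower and more economical, is the main form before birth, and is known to return in the overloaded or failing rodent heart. Myh7b is a related heavy chain gene with low expression in heart. Each of these genes is known to host a microRNA in an intron (miR-208a in Myh6, miR-208b in Myh7 and miR-499 in Myh7b), and these microRNAs take part in the control of the balance between α- and β-MHC.

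In the RefSeq annotation of the rat build GRCr8, Mir208b lay within Myh7 and Mir208a within Myh6. Both genes are on chromosome 15. The Mir208b hairpin occupied chr15:32421615-32421726 on the minus strand. Its 112 nt equal the length over which the authors counted the Mir208b row, so that row measured RNA crossing the hairpin. The hairpin is printed with its mature arms in capitals, and the mature strands follow with the seed, bases 2 to 8 from the 5′ end, in capitals.
Mir208b hairpin: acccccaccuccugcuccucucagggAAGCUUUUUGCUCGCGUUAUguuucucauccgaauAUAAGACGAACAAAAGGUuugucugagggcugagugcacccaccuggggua
miR-208b-5p: aAGCUUUUugcucgcguuau
miR-208b-3p: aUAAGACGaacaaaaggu
miR-208a-3p: aUAAGACGagcaaaaagc
miR-208b-3p and miR-208a-3p carried the same seed, which no other of the 724 rat mature microRNAs in that table had. Counted from the 5′ end and with the base of miR-208a-3p first, they differed at 3 positions (G10A, A16G and C18U). The libraries were made from poly(A) RNA, so the Mir208b row holds fragments of longer transcripts, not the mature microRNA. A long non-coding RNA gene, LOC120096985, overlaps Myh7 and spans the hairpin, and the strand used in counting was not given in the sources used here. Reads of these overlapping genes may thus not be separable. Mir208a and Mir499 were not analysed here. Positions and sequences of the assembled transcripts were not used here.

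Each library held 14812541 to 19732588 counts. Levels within a gene are given as CPM, counts scaled to library size with a normalization factor per library (TMM). Levels between genes are given as the deposited FPKM, scaled to the library total and transcript length without that factor. A gene was called in a comparison when its log2 fold change exceeded 1 in size and its adjusted p was under 0.05 in edgeR's quasi-likelihood test over all genes. The members were chosen with comparisons that involve the BAIBA group in view. Values of Myh7, Mir208b and the assembled transcripts against the BAIBA group, and all values of the assembled transcripts, are therefore descriptions without a test. Markers of cell types were summed in FPKM to check the tissue. The 6 cardiomyocyte genes summed to 15387 to 17313 FPKM in Sham, HF and BAIBA rats and to 18158 to 19327 in HFE rats, and none was at 0. The 4 atrial markers summed to 13.9 to 573 FPKM and varied widely within each group, with sarcolipin (Sln) at 0 in HFE rat 2 only. Nppa made up most of this sum in each rat. Named after its values were seen, Myl7 had 11.4 to 40.3 CPM in Sham, 0.743 to 19.8 in HF, 0.442 to 32.5 in HFE and 0.301 to 0.674 in BAIBA. The other atrial markers overlapped between BAIBA and Sham. In that comparison edgeR called 0 of the 4 and gave 3 an unadjusted p under 0.05, and DESeq2 called 2. The 5 fibroblast and scar markers summed to 470 to 609 FPKM in BAIBA rats, 461 to 465 in Sham, 374 to 522 in HF and 325 to 476 in HFE. Dcn was the largest part of this sum in each rat. Named after their values were seen, Col1a1 (104 to 115 against 140 to 177 CPM) and Col3a1 (378 to 510 against 528 to 633 CPM) were lower in every HF than in every Sham rat. The other markers of this list overlapped between HF and Sham. The 4 erythroid markers summed to 1626 to 2150 FPKM in BAIBA rats, 899 to 1772 in HF, 909 to 1360 in Sham and 1126 to 1411 in HFE. Endothelial (50 to 89.3 FPKM), macrophage (8.96 to 30.5), smooth muscle (39.8 to 109) and skeletal muscle (4.28 to 13.5) sums overlapped between the groups, except that the endothelial sum was 65.5 to 74.2 in Sham and 77.5 to 84.1 in HF. Their part in the results was not tested.

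The β-MHC share, that is Myh7 as a percentage of Myh6 plus Myh7 in FPKM, separated the groups into 3 ranges. Sham rats had shares of 27.9%, 29.3% and 31.8% (mean 29.6% ± 1.99, SD, n = 3). In HF rats it was 51.6%, 38.6% and 60.9% (50.4% ± 11.2), and the lowest HF rat still lay above the highest Sham rat. HFE rats had 60.8%, 60.2% and 49.6% (56.9% ± 6.32), within the HF range in every rat. BAIBA rats had 20.6%, 16.6% and 16.6% (18% ± 2.3), below every rat of the other groups, Sham included. The ratio of Myh7 to Myh6 was accordingly 0.422 ± 0.0405 in Sham, 1.08 ± 0.465 in HF, 1.35 ± 0.318 in HFE and 0.219 ± 0.0348 in BAIBA.

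The share was 20.7 percentage points higher in HF than in Sham (SE 6.57) and 27.2 points higher in HFE than in Sham (SE 3.83). Each of these had a two-sided exact permutation p of 0.1, the smallest that 3 rats against 3 allow. Between HFE and HF the share differed by 6.49 points (SE 7.43, exact permutation p = 0.7), less than the spread between rats. That difference rested on HF rat 2, the HF rat with the lowest share: without it the value was 0.61 points, and without HF rat 3 it was 11.8 points. The mean share of BAIBA rats lay 32.4 points below HF (SE 6.60), 11.7 points below Sham (SE 1.76) and 38.9 points below HFE (SE 3.89), given as a description.

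**Figure D1:**
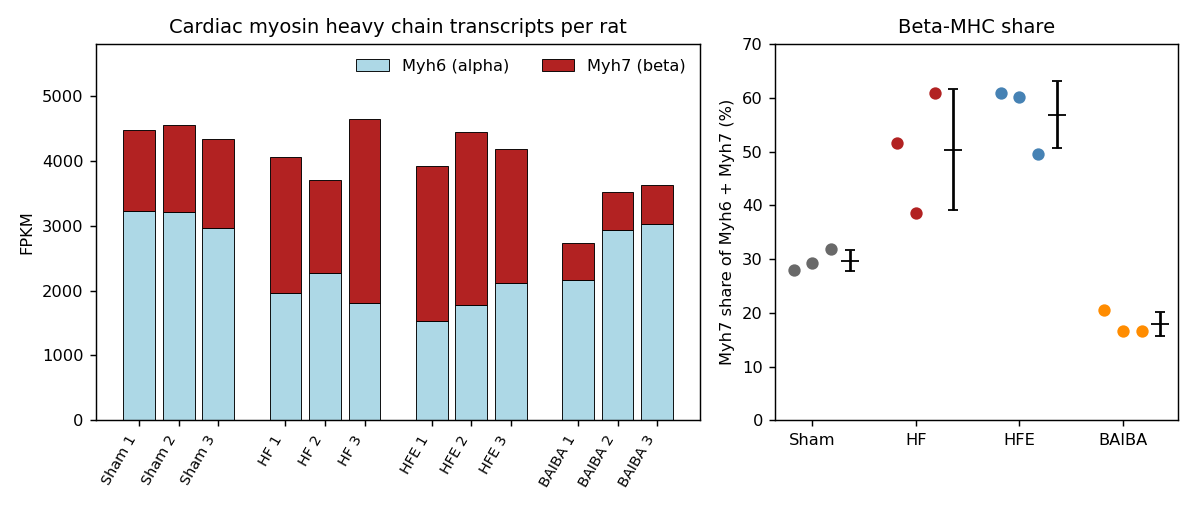
Left, FPKM of Myh6 (blue) and Myh7 (red) stacked for each of the 12 rats; right, the Myh7 share of their sum in percent, a point per rat with the group mean and SD beside it. Sham rats sit at 27.9% to 31.8%, HF and HFE rats at 38.6% to 60.9%, and BAIBA rats at 16.6% to 20.6%.

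The α-chain gene Myh6 was lower in both HF and HFE than in Sham without passing the test, and BAIBA rats spanned the range between. Sham rats had 19679, 19068 and 17323 CPM, and HF rats 11218, 13963 and 11471 CPM. HFE rats had 9135, 11196 and 13251 CPM, all below the lowest Sham rat. BAIBA rats had 12205, 18310 and 18122 CPM: rat 1 lay among the HF rats, and rats 2 and 3 among the Sham rats. The log2 difference was -0.62 between HF and Sham (SE 0.12, adjusted p = 0.709 by edgeR) and -0.73 between HFE and Sham (SE 0.13, adjusted p = 0.142). HFE and HF overlapped, with a log2 difference of -0.12 (SE 0.15, adjusted p = 0.852). Against BAIBA the groups overlapped as well, with log2 differences of 0.41 from HF (SE 0.18, adjusted p = 0.851), -0.20 from Sham (SE 0.16, adjusted p = 0.846) and 0.53 from HFE (SE 0.19, adjusted p = 0.438).

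The β-chain gene Myh7 exceeded Myh6 in FPKM in HF rats 1 and 3 and in HFE rats 1 and 2, and in no other rat. Sham rats had 7474, 7755 and 7935 CPM, a narrow spread. HF rats had 11746, 8626 and 17555 CPM, all above Sham but spread over a wide range. HFE rats had 13936, 16625 and 12794 CPM, within the HF range. BAIBA rats had 3114, 3591 and 3546 CPM, the lowest levels of the 12. In order of group means the level ran HFE, HF, Sham, BAIBA, and the neighbours HFE and HF did not differ beyond their spread.

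On the log2 scale, Myh7 in HF was 0.71 above Sham (SE 0.24, 95% interval 0.14 to 1.27, adjusted p = 0.805 by edgeR). HFE was 0.91 above Sham (SE 0.10, 95% interval 0.68 to 1.14, adjusted p = 0.0839), and 0.20 above HF (SE 0.25, 95% interval -0.41 to 0.80, adjusted p = 0.86). None of the 3 comparisons met the criteria for a call. Described without a test, BAIBA rats lay 1.17 below Sham (log2 difference -1.17, SE 0.10), 1.89 below HF (-1.89, SE 0.25) and 2.08 below HFE (-2.08, SE 0.13). In linear terms these are levels 2.25-fold, 3.70-fold and 4.23-fold lower.

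Taking α- and β-chain together, the transcript total overlapped between the groups other than BAIBA. Myh6 plus Myh7 was 4475, 4545 and 4337 FPKM in Sham, 4057, 3711 and 4637 FPKM in HF, and 3919, 4444 and 4188 FPKM in HFE. These 3 groups overlapped (exact permutation p = 0.4 for HF against Sham, 0.9 for HFE against HF and 0.2 for HFE against Sham). BAIBA rats had 2726, 3522 and 3632 FPKM, each below every other rat. The mean was 3294 FPKM in BAIBA against 4452 in Sham. Myh6 accounted for 2710 FPKM of the BAIBA mean and 3133 of the Sham mean, and Myh7 for 584 and 1319 FPKM. The 6 cardiomyocyte marker genes summed to 16014 to 16628 FPKM in BAIBA, 15853 to 16774 in Sham, 15387 to 17313 in HF and 18158 to 19327 in HFE. In whole tissue, fewer cardiomyocytes and less RNA per cardiomyocyte cannot be told apart, and their part in the lower total was not tested. Because the genes share long stretches of near-identical coding sequence, reads may also have been split between them, and all levels of Myh6 and Myh7 are uncertain to that extent.

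Across rats the chains ran in opposite directions, mostly through the group differences. Over the 12 rats, the Pearson correlation of their log2 CPM was -0.582. Over the 9 rats outside the BAIBA group it was -0.855, and with group means removed -0.183. These coefficients describe rats that share group membership.

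The background of calls was low in each comparison. Of the genes tested, 0.0% were called between HF and Sham, between HFE and HF, between HFE and Sham, and between BAIBA and HF by edgeR. The genes with an unadjusted p under 0.05 numbered 898, 1139, 1656 and 834 in these comparisons, and DESeq2 called 24, 19, 72 and 29. Between BAIBA and Sham 0.0402% were called (6 of 14920), and between BAIBA and HFE 0.0808% (12 of 14844). With the replicate number of BAIBA and HFE rats as a block, which the sample labels do not give as a pairing, 32 genes were called. All 7 members passed the filter on low counts in each comparison. Complete separation of the rats was more common: it held for 11.7% of all genes between HF and Sham, 14.3% between HFE and HF, and 17.8% between HFE and Sham. Among the members it held for 3, 2 and 3 of 7. Against the BAIBA group, which was in view when the members were chosen, separation held for 5 of 7 from HF (11.5% of all genes), 4 of 7 from Sham (12.7%) and 6 of 7 from HFE (15.6%).

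**Figure D2:**
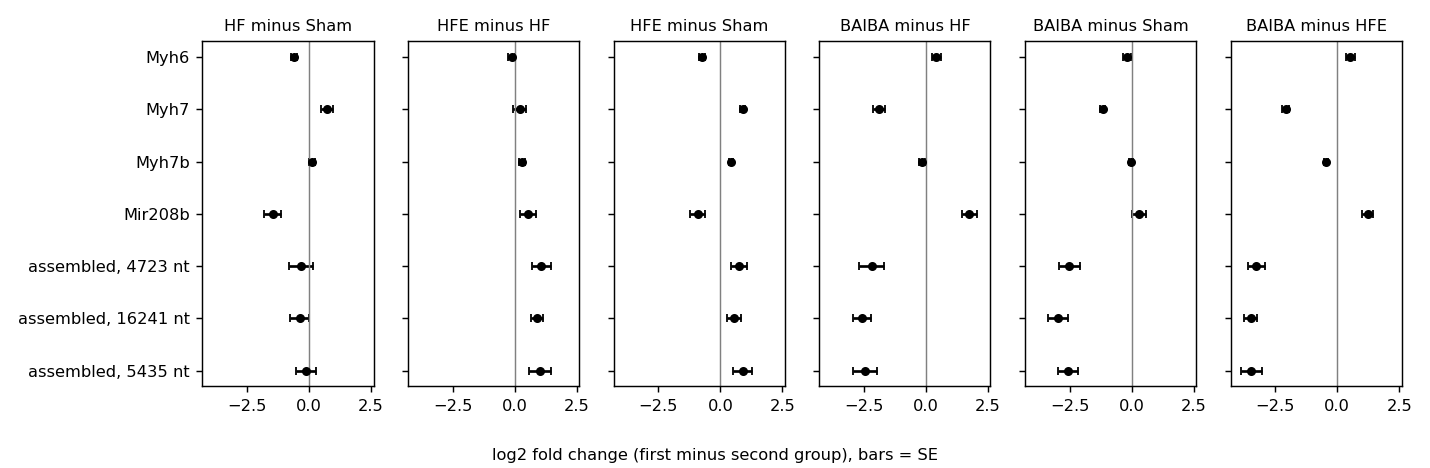
Log2 fold change (x axis, first minus second group) of the 7 members in the 6 comparisons, points with SE bars. Myh7 and the 3 assembled transcripts lie on the negative side in each BAIBA comparison while Mir208b lies at 0.29 to 1.75, and between HF and Sham Myh7 lies at 0.71 while Mir208b lies at -1.47.

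The third heavy chain gene, Myh7b, was expressed at a small fraction of the other chains. It made up 1.14% ± 0.0821 of the FPKM of the 3 genes in Sham, 1.33% ± 0.337 in HF, 1.55% ± 0.106 in HFE and 1.52% ± 0.277 in BAIBA (SD, n = 3). Its level was 291, 330 and 303 CPM in Sham, 360, 360 and 282 CPM in HF, 399, 444 and 392 CPM in HFE, and 291, 301 and 309 CPM in BAIBA. All HFE rats lay above all other rats, whereas Sham, HF and BAIBA overlapped. By edgeR the log2 difference of HFE was 0.42 from Sham (SE 0.08, adjusted p = 0.142) and 0.30 from HF (SE 0.12, adjusted p = 0.639), neither of them called. BAIBA was 0.45 below HFE (log2 difference -0.45, SE 0.09, adjusted p = 0.156). It did not separate from HF (-0.15, SE 0.13, adjusted p = 0.871) or Sham (-0.03, SE 0.09, adjusted p = 0.973), and HF and Sham differed by 0.11 (SE 0.12, adjusted p = 0.9). Over all 12 rats Myh7b ranged from 282 to 444 CPM, that is 1.57-fold, against 5.64-fold for Myh7 and 2.15-fold for Myh6.

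The Mir208b row, whose hairpin lies within Myh7, ran opposite to its host in group means, except between HFE and HF. There both means were higher in HFE, and the rats overlapped. Sham rats had 2.95, 5.86 and 5.48 CPM, and HF rats 1.71, 2.22 and 1.22 CPM, all below Sham. HFE rats had 2.07, 2.43 and 2.97 CPM, and overlapped with both. BAIBA rats had 6.85, 5.76 and 4.75 CPM, above every HF and HFE rat and overlapping with Sham. The row rested on few reads: the lowest count was 23 (95% exact Poisson interval 14.6 to 34.5) and the highest 122 (101 to 146), which covers counting error only. Between HF and Sham the log2 difference was -1.47 (SE 0.35, adjusted p = 0.737 by edgeR). Between HFE and HF it was 0.54 (SE 0.32, adjusted p = 0.699), and between HFE and Sham -0.92 (SE 0.30, adjusted p = 0.352). As a description, BAIBA differed by 1.75 from HF (SE 0.30), 1.22 from HFE (SE 0.24) and 0.29 from Sham (SE 0.29).

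Set against its host in the same rat, Mir208b spread further. Per 1000 CPM of Myh7 it had 0.395, 0.755 and 0.691 CPM in Sham, 0.146, 0.258 and 0.0697 in HF, and 0.148, 0.146 and 0.232 in HFE. In BAIBA it had 2.20, 1.61 and 1.34, and the group mean was 10.9 times that of HF. The ratio was lower in every HF and HFE rat than in every Sham rat (exact permutation p = 0.1 for each, the smallest possible), and did not separate HFE from HF (exact permutation p = 0.8). The log2 CPM of Mir208b and Myh7 had a Pearson r of -0.814 over 12 rats, -0.715 over the 9 rats outside the BAIBA group and -0.539 with group means removed. The other 418 microRNA rows summed to 71.5 to 75 CPM in Sham, 71.3 to 75.9 in HF, 76.3 to 80.6 in HFE and 75.9 to 91.5 in BAIBA. HF and Sham, which Mir208b separated, overlapped in this sum (means 73.4 and 73.2 CPM, exact permutation p = 1). The sum was higher in every HFE rat than in every HF and Sham rat, and in every BAIBA rat than in every Sham rat (exact permutation p = 0.1 for each). BAIBA overlapped with HF and with HFE.

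**Figure D3:**
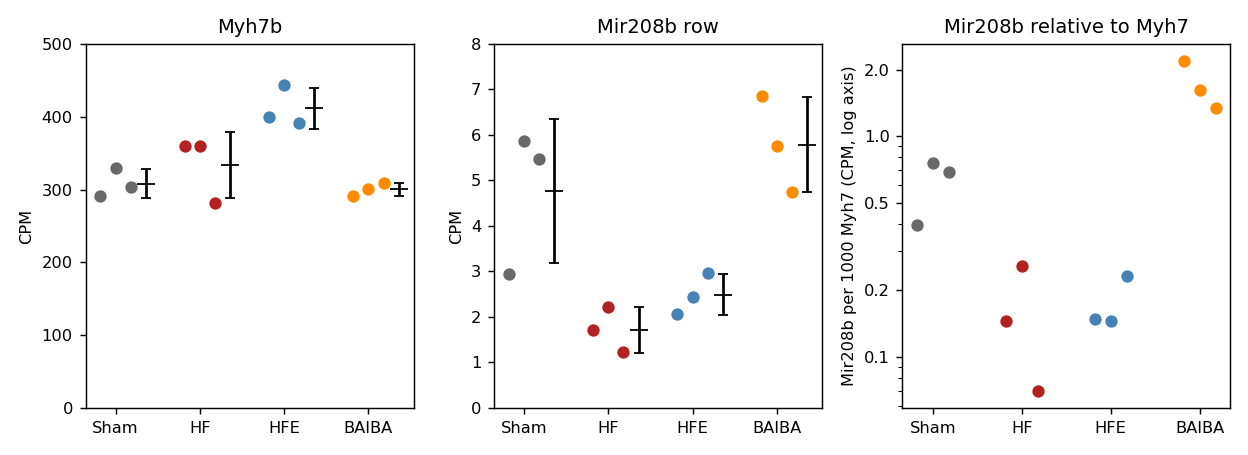
CPM of Myh7b and of the Mir208b row, and Mir208b per 1000 Myh7 on a log axis, a point per rat with mean and SD beside the linear panels. HFE rats are highest for Myh7b, at 392 to 444 CPM; BAIBA rats are highest for the ratio, at 1.34 to 2.20, and HF and HFE rats lowest, at 0.0697 to 0.258.

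The 3 assembled transcripts were, like Myh7, lower in every BAIBA rat than in the 9 others. The 4723-nt transcript had 3.53, 6.70 and 3.00 CPM in Sham, 2.69, 5.80 and 2.07 CPM in HF, 8.06, 8.67 and 5.49 CPM in HFE, and 0.730, 1.09 and 0.482 CPM in BAIBA. The 16241-nt transcript had 12.9, 22.6 and 9.66 CPM in Sham, 7.37, 15.6 and 12 CPM in HF, 20.6, 23.3 and 21.4 CPM in HFE, and 1.29, 2.75 and 1.75 CPM in BAIBA. The 5435-nt transcript had 5.91, 2.93 and 4.90 CPM in Sham, 3.03, 6.79 and 2.93 CPM in HF, 5.40, 12.6 and 7.63 CPM in HFE, and 0.618, 1.15 and 0.542 CPM in BAIBA. Outside the BAIBA group they overlapped between Sham and HF, and the 16241-nt transcript alone separated HFE from HF. Counts were small, from 8 (95% exact Poisson interval 3.45 to 15.8) in a BAIBA rat for the 4723-nt transcript to 347 (311 to 386) for the 16241-nt transcript.

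In the order of the 4723-nt, 16241-nt and 5435-nt transcripts, the log2 differences of BAIBA were -2.19, -2.59 and -2.45 from HF, -2.51, -2.96 and -2.56 from Sham, and -3.26, -3.50 and -3.47 from HFE. These exceeded the differences of Myh7 in size in each comparison. Between HF and Sham, where Myh7 differed by 0.71, the assembled transcripts differed by -0.33, -0.38 and -0.12, with SEs of 0.47, 0.38 and 0.41. Their sign did not hold: without Sham rat 2 the first and second were 0.09 and 0.03, and the third was 0.12 without Sham rat 1, 0.07 without HF rat 1 and 0.09 without HF rat 3. Between HFE and HF they differed by 1.08, 0.91 and 1.02 against 0.20 for Myh7, and between HFE and Sham by 0.76, 0.54 and 0.90 against 0.91.

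**Figure D4:**
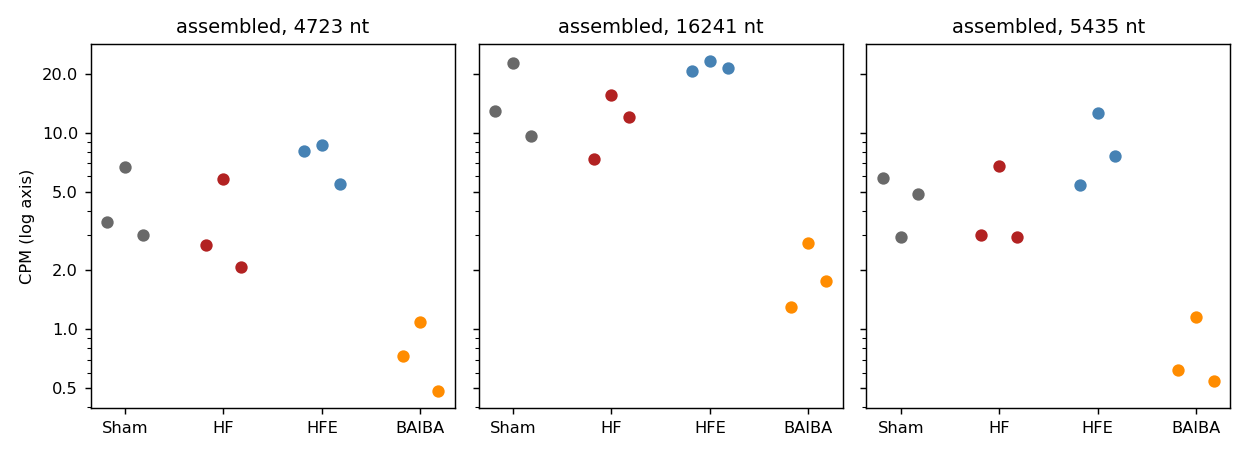
CPM of the 3 assembled transcripts on a log axis, a point per rat. BAIBA rats sit at 0.482 to 2.75 CPM over the 3 transcripts, below all 9 other rats in each, and Sham and HF rats overlap.

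Whether the assembled transcripts followed Myh7 was compared rat by rat. They had been chosen for changing together with Myh7, so a high r and rank over 12 rats were built in by the choice. Over all 12 rats the Pearson r with Myh7 was 0.772 for the 4723-nt transcript, 0.850 for the 16241-nt and 0.817 for the 5435-nt transcript, ranking 74, 11 and 34 among 15616 genes. Over the 9 rats outside the BAIBA group it was 0.0519, 0.187 and 0.177. With group means removed it was -0.468, -0.0327 and -0.289. The likeness to Myh7 therefore rested on the BAIBA rats. In HF, Myh7 was highest in rat 3 (17555 CPM), whereas the summed assembled transcripts were highest in rat 2 (28.1 CPM, against 13.1 in rat 1 and 17.0 in rat 3). Their sum per 1000 CPM of Myh7 was 2.21 to 4.15 in Sham, 0.967 to 3.26 in HF, 2.44 to 2.70 in HFE and 0.781 to 1.39 in BAIBA.

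Among themselves the assembled transcripts were alike to differing degrees outside the BAIBA group. The Pearson r between the 4723-nt and 16241-nt transcripts was 0.958 over 12 rats and 0.867 over 9. With the 5435-nt transcript it was 0.915 and 0.604 for the former, and 0.916 and 0.510 for the latter. With group means removed the 3 pairs had an r of 0.698, 0.392 and 0.260 in the same order. Other genes were compared after the values were seen. Irx3 and Irx5, which encode homeodomain transcription factors known to act in the patterning and conduction of the ventricle, were among the genes with a symbol most like the assembled transcripts, though not always the closest. Irx3 ranked first for the 4723-nt and 16241-nt transcripts and was outside the first 3 for the 5435-nt transcript. Dchs1, the gene most like Myh7, ranked second for the 16241-nt transcript (0.925 over 12 rats and 0.650 over 9). For the 5435-nt transcript, AABR07001054.1 (0.932 and 0.741) and Lmo7 (0.895 and 0.657) ranked above Irx5. With Irx3 the r was 0.945, 0.926 and 0.876 over 12 rats in the same order, and 0.817, 0.829 and 0.470 over the 9 rats outside the BAIBA group. With Irx5 it was 0.944, 0.915 and 0.890, and 0.806, 0.823 and 0.607. With group means removed the r was 0.728, 0.628 and 0.34 for Irx3, and 0.738, 0.546 and 0.457 for Irx5. For Dchs1 and the 16241-nt transcript it was 0.692. All these genes were ranked over 12 rats that include the 9, so a high r over the 9 was partly built in. For the 4723-nt transcript the slow skeletal troponin I gene Tnni1 was also close (0.912 over 12 rats and 0.861 over 9).

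Irx5 had 16.9, 14.6 and 8.81 CPM in Sham, 5.09, 15.6 and 7.55 CPM in HF, 19.2, 16.2 and 13.6 CPM in HFE, and 3.93, 3.71 and 1.87 CPM in BAIBA. Irx3 had 13.2, 13.3 and 7.18 CPM in Sham, 6.0, 13.5 and 7.71 CPM in HF, 23.2, 12.7 and 14.8 CPM in HFE, and 2.41, 4.93 and 1.20 CPM in BAIBA. As with the assembled transcripts, HF rat 2 was the highest HF rat for both genes, and all BAIBA rats lay below the 9 others. This last pattern was shared by 125 of 15617 genes (0.8%). In 12 of them the mean of the others was at least 4-fold that of BAIBA. These included Irx3, Irx5 and 5 assembled transcripts, 3 of them the ones described here. Assembled transcripts made up 1403 of the 15617 genes and 12 of the 125. With Myh7, the r of Irx3 was 0.736 over 12 rats and 0.0217 over 9, and that of Irx5 0.687 and -0.152.

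**Figure D5:**
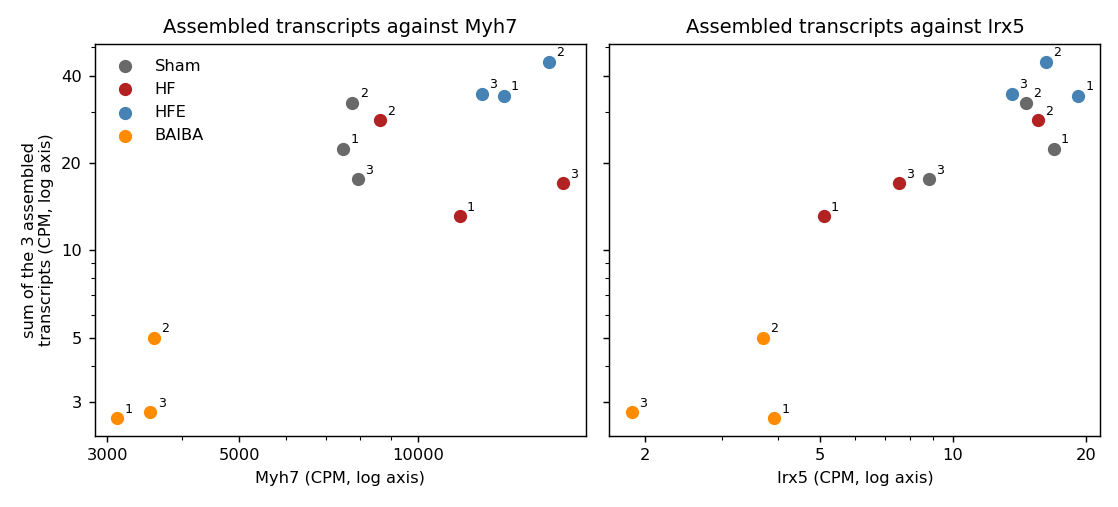
Sum of the 3 assembled transcripts (CPM, log axis) against Myh7 (left) and Irx5 (right), a point per rat with its number, coloured by group. Against Myh7 the BAIBA rats stand apart and the other 9 rats show no trend; against Irx5 HF rats 1 and 3, at 5.09 and 7.55 CPM, lie between the BAIBA rats and the rest.

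Partners of cardiac myosin were read from lists of genes by role. Among the other myosin heavy chains, 8 of 11 were analysed and 3 to 4 passed the filter in a comparison. The highest were the non-muscle chain Myh14 (135 to 223 CPM over 12 rats), the smooth muscle chain Myh11 (62.6 to 164 CPM) and the non-muscle chain Myh10 (38.1 to 65.7 CPM). The Myh9 row held only 0 to 5 counts per rat, and whether it captured the reads of that gene was not tested. None of these chains was called by edgeR or DESeq2, and none had an unadjusted p under 0.05 in any of the 6 comparisons.

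The thick filament partners were light chains, with Myl4 and Myl7 of the atrial markers among them, binding proteins, M-band proteins and myosin chaperones. Of the whole list, 26 of 27 were analysed and 22 to 24 tested. None was called by edgeR in any comparison. Over the 6 comparisons, 30 of 138 gene tests had an unadjusted p under 0.05, and DESeq2 made 4 calls. The median log2 difference was -0.10 between HF and Sham, 0.15 between HFE and HF, and 0.01 between HFE and Sham. For BAIBA it was -0.14 against HF, -0.20 against Sham and -0.23 against HFE, beside -0.01 to 0.01 for all genes. The most abundant were the ventricular light chain Myl3 (3677 to 5253 CPM), the M-band protein gene Myom2 (1713 to 4962 CPM) and the myosin-binding protein C gene Mybpc3 (2735 to 3884 CPM). Myl3 differed by 0.30 between HFE and HF (SE 0.10, adjusted p = 0.627 by edgeR). Myom2 differed by -0.79 between BAIBA and HFE (SE 0.21, adjusted p = 0.267), with 1713, 2655 and 3027 CPM in BAIBA against 3791, 4962 and 4045 CPM in HFE. Mybpc3 overlapped between the groups in all 6 comparisons.

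Between BAIBA and HFE, 9 of the 23 thick filament partners tested were lower in every BAIBA rat and 0 higher, against 8.24% of all genes lower. Against Sham 5 of 23 were lower (6.09% of all genes) and 1 higher, and against HF 3 of 22 were lower (5.46%) and 1 higher. HFE rats also had the higher cardiomyocyte marker sum, 18158 to 19327 FPKM against 16014 to 16628 in BAIBA, and its part in these counts was not tested. Singled out after the values were seen, the 9 partners lower than in HFE included the myosin chaperone gene Unc45b and Smyd1, which encodes a muscle methyltransferase needed for thick filament assembly. Unc45b had 112, 95 and 124 CPM in BAIBA and 142, 151 and 159 CPM in HFE (log2 difference -0.44, SE 0.12, adjusted p = 0.25 by edgeR). Smyd1 had 99.1, 83.9 and 110 CPM in BAIBA and 120, 126 and 154 CPM in HFE (-0.45, SE 0.14, adjusted p = 0.313). Neither passed the test.

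Of the known regulators of cardiac myosin genes, 33 of 34 were analysed and 31 tested. EdgeR called none. Over the 6 comparisons 23 of 186 gene tests had an unadjusted p under 0.05, and DESeq2 made 2 calls. Median log2 differences lay between -0.16 and 0.06. The most abundant were the calcineurin inhibitor gene Rcan1, the chromatin remodeller gene Smarca4 (115 to 148 CPM) and the transcription factor gene Mef2c (83.0 to 116 CPM). Rcan1 had 131, 111 and 196 CPM in Sham, 156, 363 and 439 CPM in HF, 348, 267 and 342 CPM in HFE, and 215, 91.8 and 128 CPM in BAIBA. It is known as a transcriptional target of calcineurin signalling. All HFE rats lay above all Sham and BAIBA rats for Rcan1, with a log2 difference of 1.13 between HFE and Sham (SE 0.24, adjusted p = 0.263 by edgeR) and -1.14 between BAIBA and HFE (SE 0.31, adjusted p = 0.292).

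Genes of the fetal programme, which is known to return with β-MHC in the loaded heart, were read beside Myh7. None of the 4 was called by edgeR, 4 of 24 gene tests had an unadjusted p under 0.05, and DESeq2 made 1 call. Ankrd1, a stress-responsive sarcomere gene, had 3293 to 5533 CPM over the 12 rats. The skeletal α-actin gene Acta1 had 92.3 to 881 CPM, and the atrial natriuretic peptide gene Nppa 10.4 to 511 CPM, both with groups that overlapped throughout. Nppb, which encodes B-type natriuretic peptide and was named after its values were seen, had 132, 46.6 and 109 CPM in Sham, 205, 302 and 189 CPM in HF, 196, 202 and 338 CPM in HFE, and 109, 36.1 and 83.0 CPM in BAIBA. Its log2 difference was 1.26 between HF and Sham (SE 0.41, adjusted p = 0.805) and -1.61 between BAIBA and HF (SE 0.41, adjusted p = 0.851). Unlike Myh7, Nppb overlapped between BAIBA and Sham (log2 difference -0.33, SE 0.54, adjusted p = 0.937).

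The genes most like each named member over the 12 rats were found by the Pearson r of log2 CPM among 15616 genes. For Myh7 these were Dchs1 (0.901), Atp5if1 (0.895), Fbxo25 (0.892), Actc1 (0.884) and Tle6 (0.861). Actc1 encodes cardiac α-actin of the thin filament, and Dchs1 a large cadherin. Over the 9 rats outside the BAIBA group the r with Myh7 was 0.951 for Fbxo25, 0.829 for Atp5if1, 0.754 for Actc1, 0.606 for Dchs1 and 0.480 for Tle6. For Myh6 the closest were Mapk9 (0.925), Oxr1 (0.893) and Agtpbp1 (0.893), for Myh7b Hypk (0.876), Wdr66 (0.876) and Wsb1 (0.872), and for Mir208b Atp1b1 (0.911), Txn2 (0.888) and Brsk1 (0.885). Mir208b and Atp1b1, a sodium pump subunit gene, had an r of 0.957 outside the BAIBA group. Those rats were among the 12 over which Atp1b1 was picked as the closest gene, so a high r was partly built in. Of all genes, 0.205% to 0.416% had an r over 0.8 with a given member.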

How the data were processed

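Left ventricular poly(A) RNA was sequenced as paired-end libraries. The submitters' processing notes name HISAT2, StringTie, featureCounts, Subread and DESeq2 without versions, and the build mm9, a mouse build, for these rat reads; no gene coordinates of the files are therefore given. The authors deposited raw counts per gene and FPKM, computed from the same counts and gene lengths, for 12 rats; both were used as deposited. The members and gene lists were chosen with earlier results of these data known. Counts (14812541 to 19732588 per library) were tested with edgeR 4.0.16 in R 4.3.3 (TMM, filterByExpr, robust quasi-likelihood fit of the 2 groups compared, Benjamini-Hochberg adjustment), and the fit was tested on simulated data. Shares and ratios were compared with the exact permutation test over the 20 assignments of 6 rats. Likeness was Pearson's r of log2(CPM + 0.1). Sequences came from RefSeq (GRCr8). Named genes were the members, listed genes that were called or among the 3 most abundant of a list, and the genes most like a member; others are said to be named after their values were seen. Deviations of same-numbered rats from their group means were compared by r. Between BAIBA and HFE the r was 0.195, 0.261 and 0.138, and in the other comparisons it was -0.0834 to 0.15. Rats of different number were not compared in this way, and the sample labels give no pairing. The replicate block was therefore used only as an alternative. Alternatives were DESeq2 1.42.0, RLE or no normalization, no filter, all 12 rats in 1 fit, a replicate block, and leaving out each rat.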

Additional observations from a re-analysis of the deposited data

How the results depend on the processing

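Of 504 recomputed log2 differences of the members, 496 kept their sign, and no tested difference gained or lost a call. The other 8 left out 1 rat and turned 6 differences. Of tested genes, Myh6 between HFE and HF ranged from -0.26 to 0.01 (0.01 without HFE rat 1), Myh7 between HFE and HF from -0.02 to 0.50 (-0.02 without HF rat 2), and Myh7b between BAIBA and Sham from -0.07 to 0.02 (0.02 without Sham rat 2). The assembled transcripts turned between HF and Sham, with ranges of -0.89 to 0.09 (4723 nt), -0.64 to 0.03 (16241 nt) and -0.63 to 0.12 (5435 nt). All 60 alternatives for the β-MHC share differed from it by less than the spread between rats. With DESeq2 some adjusted p fell under 0.05 at differences under 1 in size: Myh6 between HF and Sham (0.000721, range over alternatives 0.000721 to 1) and between HFE and Sham (0.000136, to 0.415), Myh7 between HFE and Sham (4.76e-11, to 0.383), and Myh7b between HFE and Sham (0.00671, to 0.415) and between BAIBA and HFE (0.0018, to 0.53).

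The number of genes called moved most. In the order HF against Sham, HFE against HF, HFE against Sham, BAIBA against HF, BAIBA against Sham and BAIBA against HFE, edgeR called 0, 0, 0, 0, 6 and 12 and DESeq2 24, 19, 72, 29, 78 and 170. Without the filter edgeR called 0, 2, 25, 2, 30 and 30, in 1 fit of all rats 0, 0, 0, 1, 0 and 3, and without scaling beyond library size 0, 0, 0, 0, 7 and 7. With the replicate block it called 0, 0, 1, 0, 9 and 32; it changed no call of a member. The r of deviations of same-numbered rats was 0.138 to 0.261 between BAIBA and HFE and -0.0834 to 0.15 in the other comparisons, ranges that overlap. Outside the BAIBA group, an alternative chosen after seeing the data, the r of the assembled transcripts with Myh7 fell to 0.0519, 0.187 and 0.177. Depth limits Mir208b and the assembled transcripts, with counts as low as 23 and 8.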

Other observations

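Of the 12 genes that were lower in every BAIBA rat than in the 9 others and at least 4-fold lower in mean, 5 were assembled transcripts, and the largest ratio, 44.3-fold, belonged to an assembled transcript other than the 3 described. Those 3 were chosen with the BAIBA group in view. Assembled transcripts made up 1403 of all 15617 genes ranked. The others, beside Irx3 and Irx5, were Coch (12.2-fold lower in BAIBA), AABR07037923.1 (6.98-fold), Defb1 (6.1-fold), Nos1 (5.95-fold) and Cda (5.02-fold), with the remaining assembled transcript at 5.4-fold. They were named after their values were seen, and no test was made on them. Within a rat, the summed assembled transcripts were 1.84 ± 0.459 times the CPM of Irx5 in Sham, 2.21 ± 0.383 in HF, 2.36 ± 0.514 in HFE and 1.17 ± 0.435 in BAIBA (SD, n = 3). Every BAIBA rat (0.671 to 1.48) lay below every HF rat (1.81 to 2.57) and HFE rat (1.77 to 2.75), and overlapped with Sham (1.32 to 2.20). Set against Irx3 the ratio was 2.18 ± 0.426, 2.15 ± 0.0632, 2.44 ± 1.03 and 1.47 ± 0.721, and overlapped between the groups.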
